A study of Capra hircus with 6 samples.

Results

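Sweat and mucous glands were represented by 8 genes: the secreted proteins FCGBP and MUCL1, the keratin KRT77, the water channel AQP5, the potassium channel KCNN4, the acetylcholine receptor CHRM3, and the transcription factors FOXA1 and FOXI1. They were chosen by name with the FPKM of FCGBP in white skin already known, so the values below describe them and no test is given. All 8 were found among the 26938 loci of the deposited gene comparison table, 6 by symbol and 2 by gene identifier. AQP5 is listed there as LOC102189554 and MUCL1 as LOC102184692, and the numbers in these names are the identifiers that a later goat annotation gives to AQP5 and MUCL1. RNA had been sequenced from flank skin biopsies of 6 female Chanthangi Pashmina goats aged 26 months, 2 with white, 2 with brown and 2 with black coat color. The goats carried no treatment or engineered allele, and coat color is the only label in which the groups differ. Each color has 1 FPKM (the fragments of a gene, corrected for its exon length and for the size of the library) over its 2 goats. No difference could therefore be set against the spread between goats, no SD is given, and the table holds no read counts from which an error of a single value could be taken.

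Sweat glands secrete a fluid in their coil and take back salt in their duct. In hairy skin of goats and other hoofed animals the glands are mostly of the apocrine type and open into the hair follicle. Acetylcholine and adrenergic signals raise calcium in the secretory cells, calcium opens chloride and potassium channels, and water follows through aquaporins. Mucous cells in other organs cover surfaces with mucins and with large proteins that are linked to them. A skin biopsy holds few gland cells beside keratinocytes, fibroblasts, vessels and immune cells. In such bulk RNA, fewer cells of a type and less RNA per cell cannot be told apart.

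A locus was counted as measured where its mean FPKM over the 3 colors was at least 1, and a ratio was taken where both colors were above 0. Of the 8 genes, 4 were measured: FCGBP, KRT77, MUCL1 and AQP5. AQP5 was the lowest of these, with a mean of 3.93 FPKM, and KCNN4 lay just under the limit with 0.936 FPKM. FOXA1, CHRM3 and FOXI1 had means of 0.706, 0.114 and 0.0245 FPKM. Black skin lay a little below the other colors over the whole table. All measured loci had a median log2 ratio of 0.24 in white over black, 0.03 in white over brown and 0.21 in brown over black. Positions are printed as deposited. Their genome build is not given in the sources used here, and a sequence was called by the chromosome that most of its gene names have in the later annotation.

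**Figure D1:**
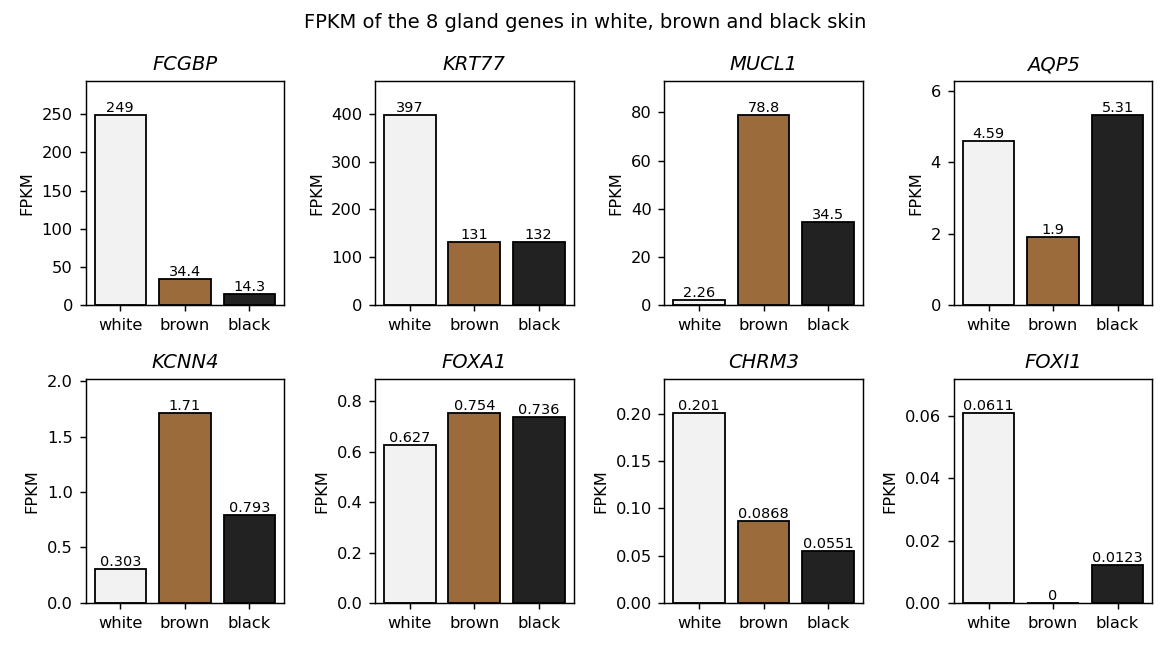
FPKM of each of the 8 genes (vertical axis, its own linear scale in each panel) in white, brown and black skin, 1 bar per color over 2 goats, with no error bars because values per goat were not used here. FCGBP and KRT77 were highest in white skin, MUCL1 and KCNN4 were lowest in white and highest in brown skin, and AQP5 was lowest in brown skin.

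The secreted proteins FCGBP and MUCL1 went in opposite directions in white skin. FCGBP is a large protein of intestinal and airway mucus, named for its binding to the constant part of immunoglobulin G. It had 249 FPKM in white, 34.4 FPKM in brown and 14.3 FPKM in black skin. White skin thus held 17.4 times the level of black and 7.23 times that of brown, and brown held 2.41 times that of black. Its log2 ratios were 4.12 for white over black, 2.85 for white over brown and 1.27 for brown over black. Among 13553 measured loci only 13, FCGBP included, had a white over black ratio as high. FCGBP was chosen for its level in white skin, so this rank only describes it. In white skin FCGBP was among the 2.42% of measured loci with the highest FPKM, in brown among 18.0% and in black among 34.3%.

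MUCL1, a small mucin-like glycoprotein made by mammary, salivary and sweat glands in human, had 2.26 FPKM in white, 78.8 FPKM in brown and 34.5 FPKM in black skin. White skin was the low color here: brown had 34.9 times and black 15.3 times its level. The log2 ratios were -3.93 for white over black and -5.13 for white over brown. Only 9 of 13553 loci were as low in white over black, and 5 of 13556 in white over brown, MUCL1 included in both counts. Brown exceeded black by a log2 ratio of 1.19, or 0.99 when the median of all measured loci was subtracted.

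KRT77, a type II keratin of the sweat duct in human skin, was the most abundant of the 8 genes. It had 397 FPKM in white, 131 FPKM in brown and 132 FPKM in black skin. White skin had 3.01 times the level of black and 3.02 times that of brown, while brown and black differed by a log2 ratio of only -0.0022. A white over black ratio of 1.59 or more was found at 298 of the 13553 loci, and a white over brown ratio of this size at 140 of 13556, so the difference in KRT77 is less extreme among all loci than those of FCGBP and MUCL1. The interval of the KRT77 locus is shared by LOC102175478, classed as a long non-coding RNA in the later annotation, which had 2.17 FPKM in white and 1.97 FPKM in brown skin and is listed at 0 in black. Whether the libraries kept strand is not stated, so reads of the pair cannot be told apart with certainty.

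AQP5, the water channel of the secretory cell surface in sweat, salivary and tear glands, had 4.59 FPKM in white, 1.90 FPKM in brown and 5.31 FPKM in black skin. Brown was the low color: white over brown was 2.42-fold, a log2 ratio of 1.27, and brown over black had a log2 ratio of -1.49. White and black differed by a log2 ratio of -0.21. In brown over black, 59 of 13556 loci were as low as AQP5 or lower. These levels are small, and with 1 FPKM added to each value the white over brown log2 ratio of AQP5 was 0.95, under the 2-fold limit.

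**Figure D2:**
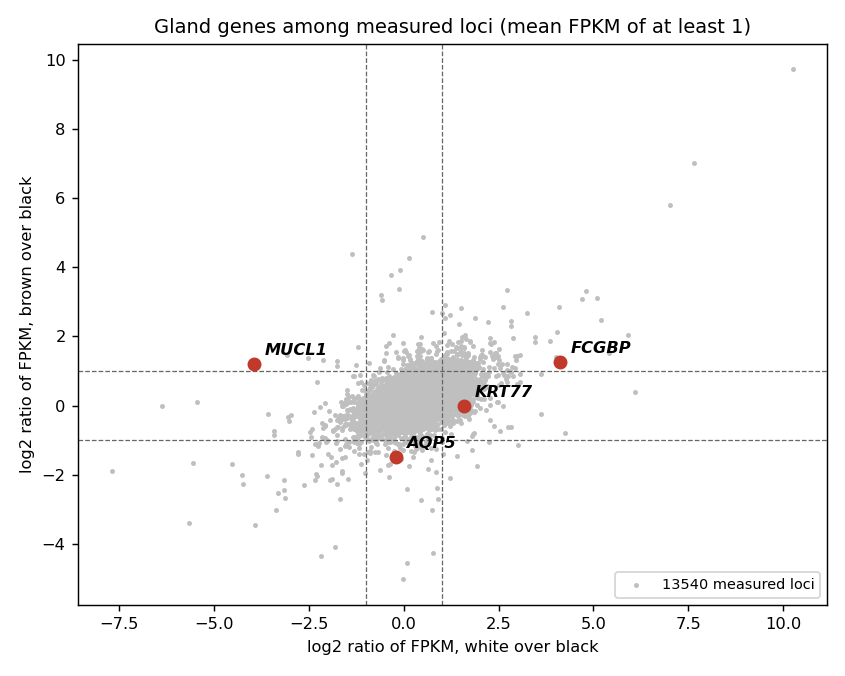
Log2 ratio of FPKM for white over black (horizontal) against brown over black (vertical) at 13540 measured loci above 0 in all colors (grey), with the 4 measured gland genes in red and dashed lines at 2-fold. Both axes share the black goats. FCGBP lies far to the right at 4.12, MUCL1 far to the left at -3.93, KRT77 at 1.59 on the horizontal axis only and AQP5 at -1.49 on the vertical axis only.

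Counted by the 2-fold limit in white over black, 2 of the 4 measured genes were higher and 1 was lower in white, where 9.50% of all measured loci were higher and 2.05% lower (11.5% either way). In white over brown, 3 were higher and 1 was lower in white, beside 4.09% and 2.09% of all loci (6.18% either way). In brown over black, 2 were higher and 1 was lower in brown, beside 3.10% and 1.02% (4.12% either way). FCGBP was chosen for its level in white skin, so nothing is read from these counts. The comparisons share colors in pairs and are not independent of each other.

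KCNN4, a calcium-activated potassium channel of secretory epithelia, T cells and red blood cells, had 0.303 FPKM in white, 1.71 FPKM in brown and 0.793 FPKM in black skin. White was the lowest and brown the highest, the same order as for MUCL1, with 5.66 times as much in brown as in white skin. Because the mean lay under 1 FPKM it was not counted, and CuffDiff marked the locus as not tested between white and black. With 1 FPKM added, KCNN4 had log2 ratios of -0.46 in white over black and 0.60 in brown over black. T cell markers had the other order in brown: all 10 were found, they summed to 46.2 FPKM in white, 28.8 FPKM in brown and 37.0 FPKM in black skin, and none was at 0. The plasma cell gene JCHAIN had 0.987 FPKM in white, 4.96 FPKM in brown and 1.20 FPKM in black skin. CD79A, from the same list of myeloid and plasma cell markers, had 1.01, 0.677 and 1.05 FPKM in white, brown and black skin. The red cell anion exchanger SLC4A1 had 1.88, 0.684 and 0.512 FPKM in white, brown and black skin. The part of these cells in the KCNN4 values was not tested.

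The receptor and the transcription factors were near the lower end of the scale. CHRM3, the muscarinic receptor through which acetylcholine starts sweat secretion in human, had 0.201 FPKM in white, 0.0868 FPKM in brown and 0.0551 FPKM in black skin. The locus is long, 394927 bp. White over black gave CHRM3 a log2 ratio of 1.87 from the deposited values, 1.01 relative to the median of similarly long loci and 0.96 with 0.1 FPKM added. FOXA1, a factor that opens chromatin in glandular epithelium, had 0.627 FPKM in white, 0.754 FPKM in brown and 0.736 FPKM in black skin, so its log2 ratios between colors stayed between -0.27 and 0.04. FOXI1, which specifies ion-transporting cells of the kidney, airway and inner ear, had 0.0611 FPKM in white and 0.0123 FPKM in black skin and is listed at 0 in brown. CuffDiff marked CHRM3, FOXA1 and FOXI1 as not tested in all 3 comparisons, and no ratio of FOXI1 is interpreted.

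Neighbouring genes were read beside the members, and FCGBP and KRT77 had neighbours both with and without a 2-fold difference. FCGBP lies on chromosome 18 from 48238415 to 48279834. Its neighbour FBL, a nucleolar methyltransferase, had 79.4 FPKM in white, 117 FPKM in brown and 124 FPKM in black skin, and the proteasome subunit PSMC4 had 96.0 FPKM in white, 113 FPKM in brown and 119 FPKM in black skin. The kinase gene DYRK1B, just beyond FBL and 22114 bp from FCGBP, was nearer than PSMC4 and had a white over black log2 ratio of 1.07. KCNN4 lies 2.50 Mb further along the same sequence, from 50779026 to 50792670, and was lowest in white skin, where FCGBP was highest. Beside KCNN4, the decay factor SMG9 had 5.88 FPKM in white, 6.24 FPKM in brown and 7.93 FPKM in black skin. LYPD5, 14959 bp from KCNN4 on the other side, was highest in white, with 123 FPKM in white, 58.1 FPKM in brown and 72.6 FPKM in black skin. The urokinase receptor PLAUR, further off at 86955 bp, had 6.88 FPKM in white, 17.3 FPKM in brown and 21.4 FPKM in black skin. KRT77 lies on an unplaced sequence from 186638 to 204371, 9233 bp from KRT1, the main keratin of the upper epidermis. KRT1 had 4835 FPKM in white, 5825 FPKM in brown and 4335 FPKM in black skin, and KRT2, which follows it, 193 FPKM in white, 174 FPKM in brown and 188 FPKM in black skin. Neither differed between colors by 2-fold, whereas LOC102176522 beyond KRT2 had 62.4 FPKM in white, 32.6 FPKM in brown and 20.3 FPKM in black skin.

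MUCL1 and AQP5 lie 4.28 Mb apart on chromosome 5, MUCL1 from 24567477 to 24569694 and AQP5 from 28852802 to 28857130. The neighbour of MUCL1 at a distance of 46295 bp is LOC102184404, a protein-coding gene with no name, with 515 FPKM in white, 1037 FPKM in brown and 2088 FPKM in black skin. Like MUCL1 it was lowest in white, at a white over black log2 ratio of -2.02, but its highest color was black. AQP5 stands between AQP6, listed at 0 in all colors, and AQP2, listed at 0 in white and brown and at 0.0830 FPKM in black skin. AQP5 was thus the one gene of this aquaporin cluster above 1 FPKM.

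**Figure D3:**
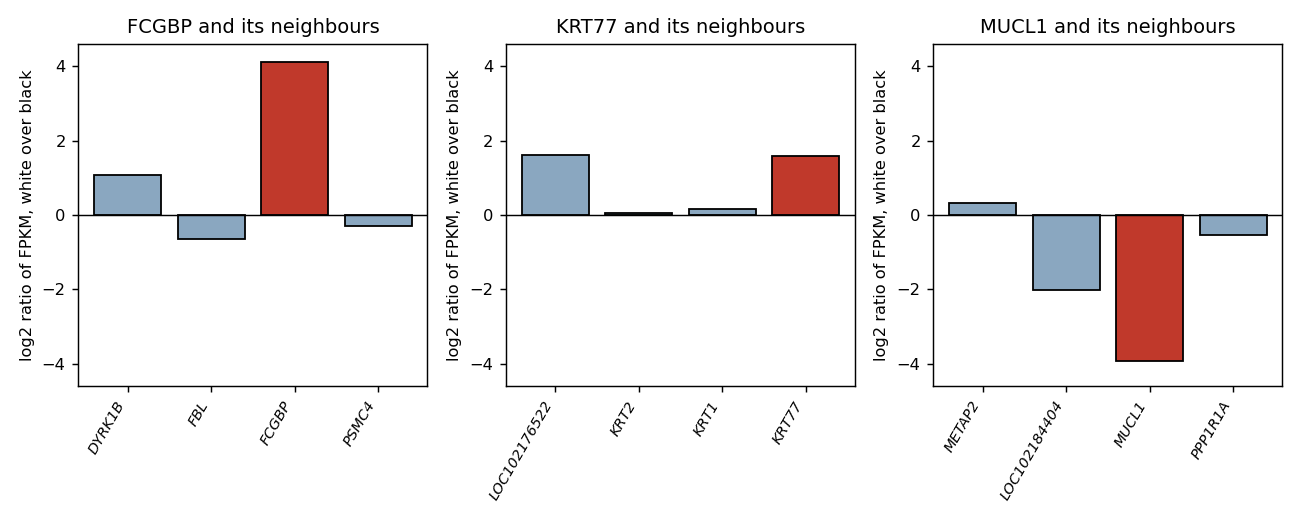
Log2 ratio of FPKM, white over black, of FCGBP, KRT77 and MUCL1 (red) and of those of their 3 nearest loci on each side that were measured with FPKM above 0 in both colors (blue), in the order in which they lie on the sequence, not to scale. FBL and PSMC4 near FCGBP are below 0 and KRT1 and KRT2 beside KRT77 are near 0, while DYRK1B near FCGBP, LOC102176522 near KRT77 and LOC102184404 beside MUCL1 have the sign of their member.

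Other secreted proteins of apocrine glands had both higher and lower genes in white skin. Of 16 listed, 9 were found and 6 measured. In white over black, 1 was higher and 1 lower in white, with a median log2 ratio of -0.58, beside 9.50% and 2.05% of all measured loci. In white over brown, 1 was higher and 3 were lower in white, with a median of -0.62, beside 4.09% and 2.09% of all loci, and in brown over black none passed 2-fold, with a median of -0.03. Only APOD and MFGE8 had a mean of at least 5 FPKM. Their white medians were 0.87 over black and 0.91 over brown, so the negative sign of the list medians rests on the genes of low level. The lipocalin APOD was the 1 gene of the list over 2-fold higher in white, with 406 FPKM in white, 152 FPKM in brown and 161 FPKM in black skin. The iron-binding protein LTF was lower in white, with 0.344 FPKM in white, 2.25 FPKM in brown and 2.83 FPKM in black skin. LTF is also a protein of neutrophil granules, and the myeloid genes S100A8 and CSF3R had the same order, CSF3R with 0.548 FPKM in white, 0.826 FPKM in brown and 2.17 FPKM in black skin. Their part in the LTF values was not tested. WFDC2 had 1.59 FPKM in white, 3.64 FPKM in brown and 3.18 FPKM in black skin. ABCC11, a transporter that loads apocrine secretion in human, had 2.36 FPKM in white, 6.43 FPKM in brown and 3.80 FPKM in black skin, the same order as MUCL1. MFGE8, a milk fat globule protein, had 60.4 FPKM in white, 45.9 FPKM in brown and 45.5 FPKM in black skin. PIP, DCD, LYZ and the listed secretoglobins had no locus under these names and were not analysed here.

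The gel-forming mucins that were found had very low levels. Of 39 genes of mucous secretion 32 were found, 7 measured and 7 listed at 0 in all colors. MUC2, MUC5AC, MUC6 and MUC19 were all under 0.1 FPKM in every color, and MUC5B was not analysed here. One measured gene, TFF2, a trefoil peptide secreted with gastric mucus, was over 2-fold higher in white than in black skin, where 9.50% of all measured loci were. TFF2 had 4.35 FPKM in white and 0.0956 FPKM in black skin and is listed at 0 in brown, so it has no ratio to brown, and it passed the limit on the mean only through its level in white. No other measured gene of the list passed 2-fold in any comparison. Its medians were 0.24 in white over black, -0.26 in white over brown and 0.22 in brown over black, and the first became -0.01 relative to all measured loci and the second 0.38 with no filter on low values. The membrane mucin MUC15 had 21.3 FPKM in white, 12.3 FPKM in brown and 12.0 FPKM in black skin, and CLCA2, a chloride channel regulator of keratinocytes, 73.0 FPKM in white, 97.0 FPKM in brown and 61.9 FPKM in black skin. AGR2, which folds mucins, had 0.264, 0.770 and 0.458 FPKM in white, brown and black skin, and PIGR, which carries antibodies into secretions, 0.111, 0.346 and 0.129 FPKM. Other genes of the list at such levels were highest in white. Among them, DMBT1 had 0.535, 0.412 and 0.206 FPKM and GCNT3 0.421, 0.306 and 0.275 FPKM in white, brown and black skin.

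**Figure D4:**
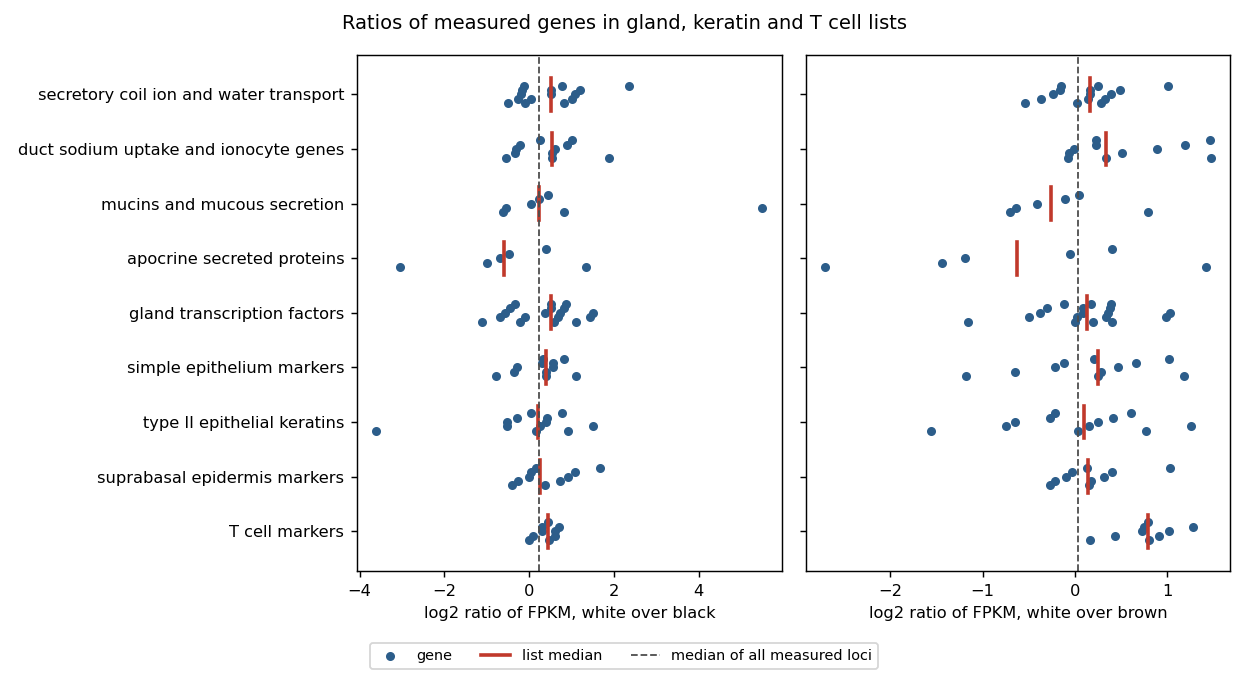
Log2 ratio of FPKM of each measured gene (points) in 9 gene lists, white over black on the left and white over brown on the right, with the list median in red and the median of all measured loci as a dashed line. Of the lists drawn, which leave out the myeloid and plasma cell markers among others, the apocrine proteins have medians of -0.58 and -0.62 and the T cell markers a white over brown median of 0.79.

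The ion and water machinery of the secretory coil was present at moderate levels. Of 21 genes all were found and 15 measured. White skin exceeded black by 2-fold or more at 4 of them and lay 2-fold below it at none, beside 9.50% and 2.05% of all measured loci. Their median log2 ratio in white over black was 0.51. In white over brown 1 was higher, beside 4.09% of all loci, with a median of 0.17. In brown over black, 2 were higher in brown, beside 3.10% of all loci, with a median of 0.13. Relative to similarly long loci, the white over black median of these genes was -0.15. The brown over black median turned negative in the same way and under each other rescaling. The bicarbonate carrier SLC4A4 had 2.24 FPKM in white, 1.11 FPKM in brown and 0.439 FPKM in black skin. Its mean of 1.26 FPKM lay close to the limit, with the highest level in white. SLC12A2, the sodium, potassium and chloride carrier that loads the secretory cell, had 11.0 FPKM in white, 9.97 FPKM in brown and 5.17 FPKM in black skin. ITPR2, the calcium release channel that sweating requires in human and mouse, had 7.17 FPKM in white, 7.96 FPKM in brown and 3.11 FPKM in black skin. The carbonic anhydrase CA12 had 52.0 FPKM in white, 41.6 FPKM in brown and 25.9 FPKM in black skin. The chloride channel ANO1 had 6.34 FPKM in white, 8.17 FPKM in brown and 7.64 FPKM in black skin, and CFTR 0.665, 0.316 and 0.116 FPKM in white, brown and black skin.

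Among duct and ionocyte genes, 19 of 20 were found and 11 measured. In white over black 2 were higher in white, beside 9.50% of all loci, with a median of 0.54. Relative to similarly long loci this median was 0.08, and with the median of all measured loci subtracted it was 0.29. Against brown 3 were higher in white, beside 4.09% of all loci, with a median of 0.33. None passed 2-fold in brown over black, where the median was -0.27, and none was lower in white. The higher ones were the proton pump subunit ATP6V0A4, with 11.9 FPKM in white, 4.30 FPKM in brown and 5.93 FPKM in black skin, SLC4A1 in both comparisons, and TMEM61, with 1.77 FPKM in white, 0.773 FPKM in brown and 1.22 FPKM in black skin. SLC4A1, also the red cell anion exchanger, had a mean of 1.03 FPKM and passed the limit on the mean only through white. TMEM61, with a mean of 1.25 FPKM, lay close to that limit. ATP6V1B1, a proton pump subunit that FOXI1 controls in mouse kidney, had 72.9 FPKM in white, 51.1 FPKM in brown and 39.2 FPKM in black skin, although FOXI1 itself was at most 0.0611 FPKM. Of the epithelial sodium channel, SCNN1A had 10.2 FPKM in white, 5.52 FPKM in brown and 7.05 FPKM in black skin, SCNN1B 9.84 FPKM in white, 10.4 FPKM in brown and 12.1 FPKM in black skin, and SCNN1G 3.25 FPKM in white, 3.39 FPKM in brown and 4.09 FPKM in black skin, none of them 2-fold apart. ATP6V1C2 had 116, 99.1 and 97.1 FPKM in white, brown and black skin.

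Other aquaporins and potassium channels were read beside AQP5 and KCNN4. Of all measured loci, 11.5% passed 2-fold either way in white over black, 6.18% in white over brown and 4.12% in brown over black. Of 11 further aquaporins found, 5 were measured and none passed 2-fold in a comparison. Their medians were 0.40 in white over black, 0.35 in white over brown and -0.05 in brown over black. AQP3, the glycerol channel of keratinocytes, had 200 FPKM in white, 291 FPKM in brown and 283 FPKM in black skin, and the vessel channel AQP1 99.4 FPKM in white, 78.0 FPKM in brown and 72.3 FPKM in black skin. Of 7 further calcium-activated potassium channel genes, 3 were measured. KCNMB4 was 2-fold higher in white than in black skin, with 7.09 FPKM in white, 3.87 FPKM in brown and 3.20 FPKM in black skin. KCNN1 was 2-fold lower in white than in black, with 0.867 FPKM in white, 1.66 FPKM in brown and 1.94 FPKM in black skin. Of 20 genes of muscarinic, adrenergic and nerve control found, 7 were measured. The receptor ADRB1 had 1.89 FPKM in white, 1.62 FPKM in brown and 0.889 FPKM in black skin and was 2-fold higher in white than in black, as was BCHE, a cholinesterase. Of the other muscarinic receptors, CHRM1, CHRM2 and CHRM4 were under 0.1 FPKM in every color, while CHRM5 had 0.0136 FPKM in white, 0.521 FPKM in brown and 0.0137 FPKM in black skin. The brown value of CHRM5 was above that of CHRM3 in any color, at levels under the limit of 1 FPKM.

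Of 21 further gland transcription factors found, 18 were measured. In white over black 3 were higher and 1 was lower in white, with a median of 0.53, beside 9.50% and 2.05% of all loci. In white over brown 1 was higher and 1 lower, with a median of 0.13, beside 4.09% and 2.09% of all loci. In brown over black 1 was higher in brown, with a median of 0.17, beside 3.10% of all loci. GATA3, which shapes mammary ducts and the hair root sheath, had 48.2 FPKM in white, 23.7 FPKM in brown and 16.9 FPKM in black skin. KLF5, a factor of proliferating epithelium, had 45.7 FPKM in white, 36.1 FPKM in brown and 21.3 FPKM in black skin. FOXI3, a factor of hair and tooth buds related to FOXI1, was lower in white, with 1.44 FPKM in white, 3.22 FPKM in brown and 3.11 FPKM in black skin. Relative to similarly long loci, the white over black median of the list was -0.09 and the brown over black median -0.10.

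Markers of other cells were read beside these values. Of all measured loci, 9.50% were 2-fold higher and 2.05% 2-fold lower in white than in black skin. Against brown the shares were 4.09% higher and 2.09% lower in white, and in brown over black 3.10% higher and 1.02% lower in brown. The counts below are given beside these shares and nothing is read from them. Simple epithelium markers, shared by gland cells and some follicle cells, summed to 696 FPKM in white, 585 FPKM in brown and 571 FPKM in black skin, with 1 of 11 measured genes, CLDN10, 2-fold higher in white than in black. CLDN10 and CLDN3 were 2-fold higher and CLDN7 2-fold lower in white than in brown. Myoepithelial markers, of which 8 were measured, had none past 2-fold, and their sum, made up mostly by KRT14 and KRT5 of the basal epidermis, was 17637 FPKM in white, 22238 FPKM in brown and 13776 FPKM in black skin. Of 12 other type II keratins measured, KRT72 of the inner root sheath was 2-fold higher in white than in both other colors and KRT4 2-fold lower. KRT72 had 316 FPKM in white, 133 FPKM in brown and 111 FPKM in black skin, close to the order of KRT77. Suprabasal epidermis markers summed to 14454 FPKM in white, 13674 FPKM in brown and 11753 FPKM in black skin, and 2 of 10, IVL and DSG1, were 2-fold higher in white than in black. Sebaceous gland markers summed to 645 FPKM in white, 498 FPKM in brown and 539 FPKM in black skin, with 1 of 12, GAL, 2-fold lower in white than in black. GAL was also 2-fold lower in white than in brown, and DGAT2 2-fold higher. Myeloid and plasma cell markers summed to 76.9 FPKM in white, 469 FPKM in brown and 1409 FPKM in black skin, mostly S100A8 with 19.6 FPKM in white, 290 FPKM in brown and 912 FPKM in black skin. This sum is low in white skin, as MUCL1 is, but highest in black, and single markers had other orders. CSF1R was highest in white, with 24.0 FPKM in white, 17.1 FPKM in brown and 18.2 FPKM in black skin. The plasma cell genes JCHAIN and MZB1 were lowest in white and highest in brown, the order of MUCL1. MZB1 had 0.0640, 0.919 and 0.133 FPKM in white, brown and black skin. Other genes of this list had other orders. POU2AF1 was highest in brown but lowest in black, with 0.0205, 0.222 and 0.00922 FPKM in white, brown and black skin. CD79A was lowest in brown and CD79B highest in black. The part of these cells in the MUCL1 values was not tested. Against these, 13 reference genes had median log2 ratios of -0.14 in white over black, -0.22 in white over brown and 0.14 in brown over black. KRT14 alone had 8995 FPKM in white, 12437 FPKM in brown and 7238 FPKM in black skin, so the main epidermal marker was abundant in the skin of every color.

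The genes most like each measured member were found by the distance between their pairs of log2 ratios, white over black and brown over black, among named loci of a mean FPKM of at least 1. With only 3 colors such likeness is common and describes these values alone. Closest to FCGBP were STK32A, SCARA5 and CALN1, at distances of 0.16, 0.62 and 0.85. STK32A had 3.61, 0.585 and 0.222 FPKM and CALN1 2.46, 0.646 and 0.149 FPKM in white, brown and black skin. Both passed the limit on the mean only through their level in white. SCARA5, a ferritin receptor, had 16.8 FPKM in white, 2.55 FPKM in brown and 1.36 FPKM in black skin. KRT77 had close company: GPR34, CA6 and OSR1 lay at 0.056, 0.087 and 0.091. CA6, the carbonic anhydrase secreted in saliva, had 15.5 FPKM in white, 5.56 FPKM in brown and 5.28 FPKM in black skin. MUCL1 stood almost alone, with the collagenase MMP1 at a distance of 0.89, followed by the matrix protein TNC at 1.74 and FOSL1 at 1.76. MMP1 had 1.30 FPKM in white, 30.3 FPKM in brown and 11.0 FPKM in black skin. MAMDC4, EGFL6 and IL11 were nearest to AQP5, at 0.11, 0.29 and 0.37, all of them at levels under 3 FPKM.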

How the data were processed

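Per the paper's methods, the authors aligned reads to the NCBI goat genome with TopHat, keeping all positions of multiply mapped reads (the submitters' processing notes name Bowtie2 version 2), and measured transcripts with Cufflinks and CuffDiff. The deposited table gives 1 FPKM per color over 2 goats for each of 26938 loci. How libraries were scaled is not given in the sources used here. Its columns of fold changes, test statistics, p-values and q-values hold the authors' own comparisons and were not used. With 1 value per color, no test was run.

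Log2 ratios were computed from FPKM (Python 3.11.15, pandas 2.3.3) at 13659 loci with 1 gene name and a mean FPKM of at least 1. Differences of 2-fold or more either way were counted. Names were matched by symbol, or for LOC entries by gene identifier (540 loci), to RefSeq's ARS1.2 annotation. The 8 genes and 16 gene lists were chosen with earlier results of these data known. Named genes are the 8 members, up to 4 of the largest changes and 2 of the highest levels per list, neighbouring loci and closest patterns. CFTR, ANO1, AGR2, PIGR, SCNN1A, SCNN1B, SCNN1G, CHRM5 and genes named as under 0.1 FPKM or at 0 were added after their values were seen. So were CSF1R, MZB1, POU2AF1, CD79A, CD79B, DMBT1 and GCNT3. Reads placed at several positions can add FPKM to similar genes such as keratins. The counting step was tested on simulated data. Some genes that the naming rule selects are not reported here.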

Additional observations from a re-analysis of the deposited data

How the results depend on the processing

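No paired analysis was possible because each color has 1 value over its goats, and for the same reason no goat could be left out. Of the 2-fold calls of the 4 measured genes, 3 fell under the limit in an alternative: AQP5 in white over brown with 1 FPKM added (0.95), MUCL1 in brown over black with the median of all measured loci subtracted (0.99), and FCGBP in brown over black relative to similarly long loci (0.91). The other 78 values kept their direction where they had passed 2-fold, and their side of the limit. Part of them could not move: settings that change only the filter on the mean leave the ratio of a gene that passes as it is. AQP5, with a mean of 3.93 FPKM, did not pass at a mean of at least 5. Its 2-fold calls in white over brown and brown over black are thus absent in that setting. The counts of all loci moved more. Higher and lower in white over black were 1287 and 278 loci in the main setting, 694 higher with 1 FPKM added, 578 and 144 at a mean FPKM of at least 5, 2639 and 753 with no filter, 114 and 57 at a log2 limit of 2, 706 and 461 with the median of all loci subtracted, and 590 higher relative to similarly long loci. In white over brown the main counts of 555 and 283 became 255 and 128 at a mean of at least 5, 1475 and 871 with no filter, 60 and 40 at a log2 limit of 2, and 931 and 164 with the reference genes subtracted. In brown over black the main 420 and 138 became 163 higher with 1 FPKM added, 108 and 55 at a mean of at least 5, 1363 and 620 with no filter, 38 and 31 at a log2 limit of 2, 216 and 220 with the median of all loci subtracted, 189 higher relative to similarly long loci and 255 higher with the reference genes subtracted. The share of calls higher in white over black was 82.2% as deposited, 60.5% with the median of all loci subtracted, 59.5% relative to similarly long loci and 89.9% with the reference genes subtracted (1810 higher and 204 lower). In white over brown it was 66.2% as deposited and 85.0% with the reference genes subtracted, and in brown over black 75.3% as deposited, 49.5% with the median subtracted, 57.4% with the reference genes subtracted and 51.1% relative to similarly long loci. Adding 0.1 or 1 FPKM brought the CHRM3 and FOXI1 white over black ratios under 2-fold. The cause of these shifts was not tested. The table holds no read counts, so for KCNN4, CHRM3, FOXA1 and FOXI1, all under a mean of 1 FPKM, differences between colors cannot be set against counting error.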
